A study of Arabidopsis thaliana with 12 samples.

Results

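The 41 genes described here are the Arabidopsis thaliana genes for late embryogenesis abundant (LEA) proteins other than dehydrins, taken by locus from the genome-wide family, out of 36795 loci in the tables. RNA was sequenced from after-ripened seeds that spent 2 days at 4°C and then 12 h in a medium. The groups were the mutant odr1-2 in 300 mM mannitol, odr1-2 in water, the wild type Col-0 in 300 mM mannitol and Col-0 in water, with 3 biological replicates each. Mannitol was applied as an osmotic stress and water was its control. The labels give odr1-2 only as a mutant, with no description of the allele, and do not say whether replicates came from separate seed lots. The p-values therefore judge group differences against the spread between these samples, and may not extend to other seed lots. The ODR1 transcript itself was not analysed here.

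LEA proteins are small, mostly hydrophilic and largely disordered proteins that accumulate in embryos as seeds dry, and many are also made in vegetative tissue under drought, cold or abscisic acid (ABA). They protect enzymes and membranes from drying in vitro, and their transcripts normally decline once a seed takes up water and proceeds to germination. In seeds their genes are controlled by ABI3 and other B3 factors of the embryo programme and by ABI5 and related bZIP factors, which bind ABA-responsive elements (ABREs) in promoters. ODR1 has been described as a protein that restrains ABA synthesis and seed dormancy in Arabidopsis through the bHLH57 transcription factor.

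Libraries held between 10060020 and 13693166 gene counts. Levels are the authors' TPM values, a measure scaled to transcript length and to the library's total, so that levels of different genes can be compared. Log2 fold changes, given with their standard error, come from the edgeR quasi-likelihood test on counts, and the words rose, fell, higher and lower are used of a gene where the p-value, adjusted by Benjamini-Hochberg over 18413 genes, was under 0.05. For mannitol, rose, fell, raised and response compare levels in mannitol with those in water, both after 12 h. No dry or earlier sample was measured, so whether a level rose or declined less over time was not tested. Of the 41 LEA genes 33 had enough counts to be tested, and 8 did not and are given separately. Replicates lay close together: the coefficient of variation of TPM within a group, over the tested LEA genes, had a median of 4.71% and reached 21.5%. Col-0 mannitol replicate 2 stood farther from its group than other libraries, with a chi-square per degree of freedom of 5.75 against replicate 1 where counting error alone gives 1. Seed storage protein and oleosin genes, which mark the embryo, were abundant in all groups.

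The LEA genes were measured first as a sum. Their summed level was 32601, 32569 and 32580.0 TPM in odr1-2 in mannitol and 18273, 18821 and 19189.7 TPM in odr1-2 in water, against 22931, 24841 and 24435 TPM in Col-0 in mannitol and 10561, 10474 and 10541 TPM in Col-0 in water. The 4 groups did not overlap, and the order was Col-0 in water, odr1-2 in water, Col-0 in mannitol and odr1-2 in mannitol. As a share of all counts, the genes held 2.11% to 2.12% in odr1-2 in mannitol and 1.14% to 1.21% in odr1-2 in water, against 1.46% to 1.64% in Col-0 in mannitol and 0.658% to 0.664% in Col-0 in water. In whole seeds, a change in the share of a cell type and a change in RNA per cell cannot be told apart.

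**Figure D1:**
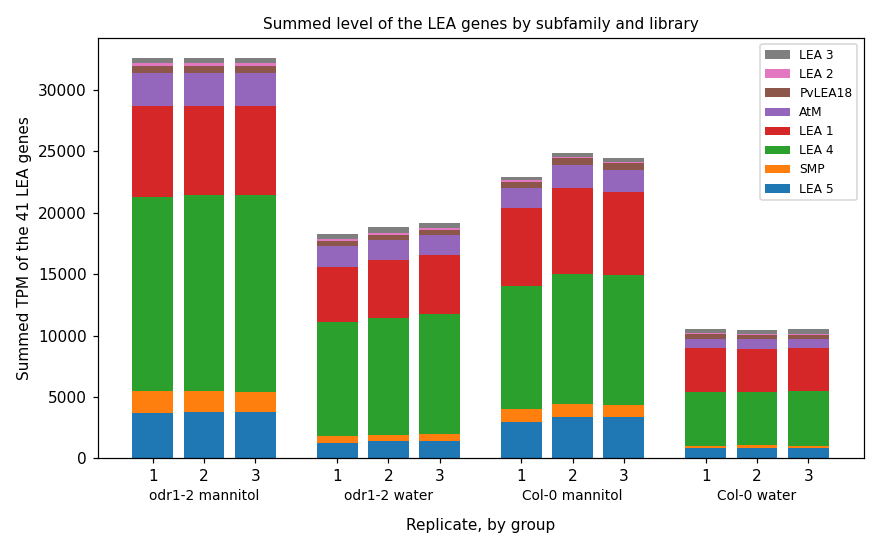
Summed TPM of the 41 LEA genes in each of the 12 libraries, stacked by subfamily. The bars are at 32569 to 32601 TPM in odr1-2 in mannitol and at 10474 to 10561 TPM in Col-0 in water, and the LEA_4 subfamily (green) is the largest block in every library.

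A few genes carried much of this sum. The 5 most abundant members of a group held 48.1% of it in odr1-2 in mannitol and 49.9% in odr1-2 in water, against 49% in Col-0 in mannitol and 51.7% in Col-0 in water. AT3G15670 led in odr1-2 in mannitol with 5309 ± 92.2 TPM (SD, n = 3), followed by EM6, LEA4-5, LEA7 and LEA4-2 with means from 2550 to 2676 TPM. Ranked by mean TPM among all loci, AT3G15670 was the 8th in that group. At the low end of the tested members, COR15B, UNE15, LEA26 and AT5G53260 stayed under 30 TPM in every library.

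**Figure D2:**
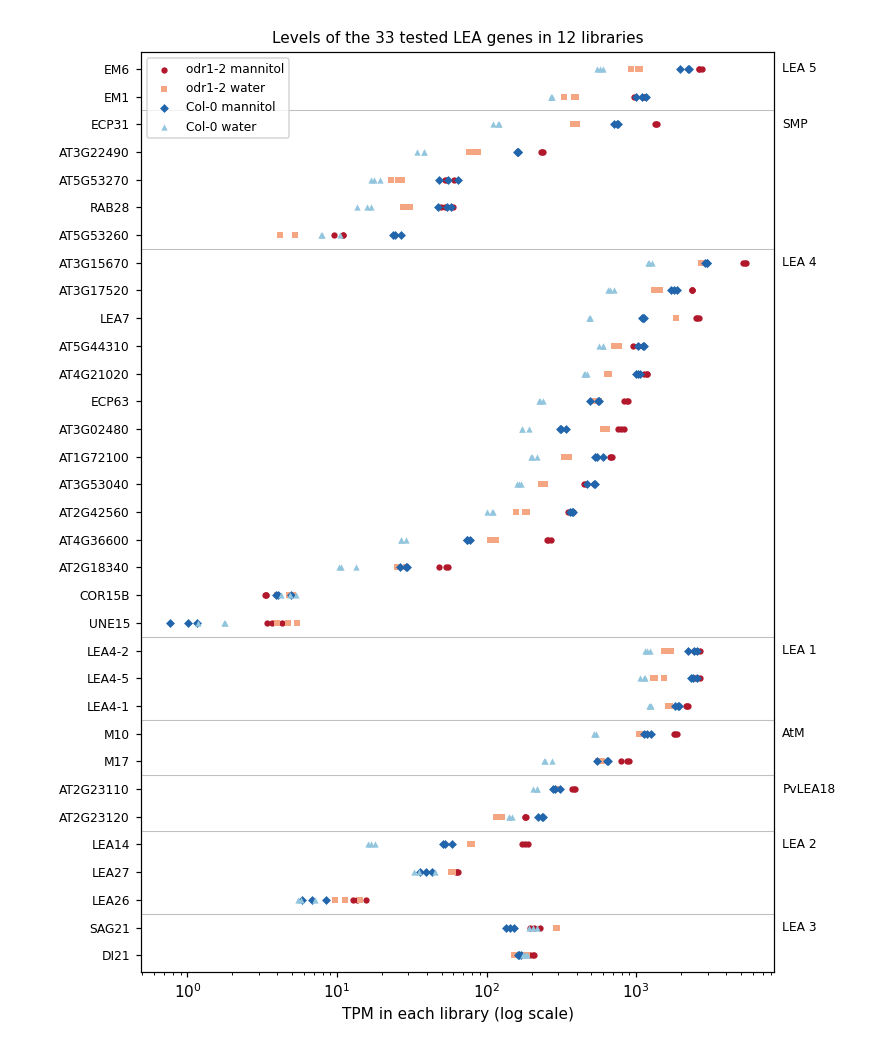
TPM of the 33 tested LEA genes (rows, by subfamily) in each of the 12 libraries on a log scale, 1 point per library. In most rows Col-0 in water (light blue) lies at the left and odr1-2 in mannitol (dark red) at the right, with SAG21, UNE15, COR15B, AT5G53260 and AT2G23120 among the exceptions.

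Most of these transcripts were higher in mannitol than in water in both genotypes. Of the 33 tested genes, 28 rose and 1 fell in odr1-2, with a median log2 fold change of 0.89 (-0.0035 over all genes tested), where 21.2% of all genes tested rose and 21.3% fell. In Col-0, 27 rose and 2 fell, with a median of 1.29 (0.0031 over all genes), where 21% of all genes rose and 21.4% fell. Changes of at least 2-fold were called for 13 members in odr1-2, beside 3.07% of all genes higher and 3.54% lower by that much. The same limit was passed by 22 members in Col-0, beside 4.06% higher and 3.77% lower. The rises spanned the LEA_5, SMP, LEA_4, LEA_1, AtM and PvLEA18 subfamilies, whereas in LEA_2 1 of 3 tested members rose in each genotype, and in LEA_3 1 of 2 fell in each.

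**Figure D3:**
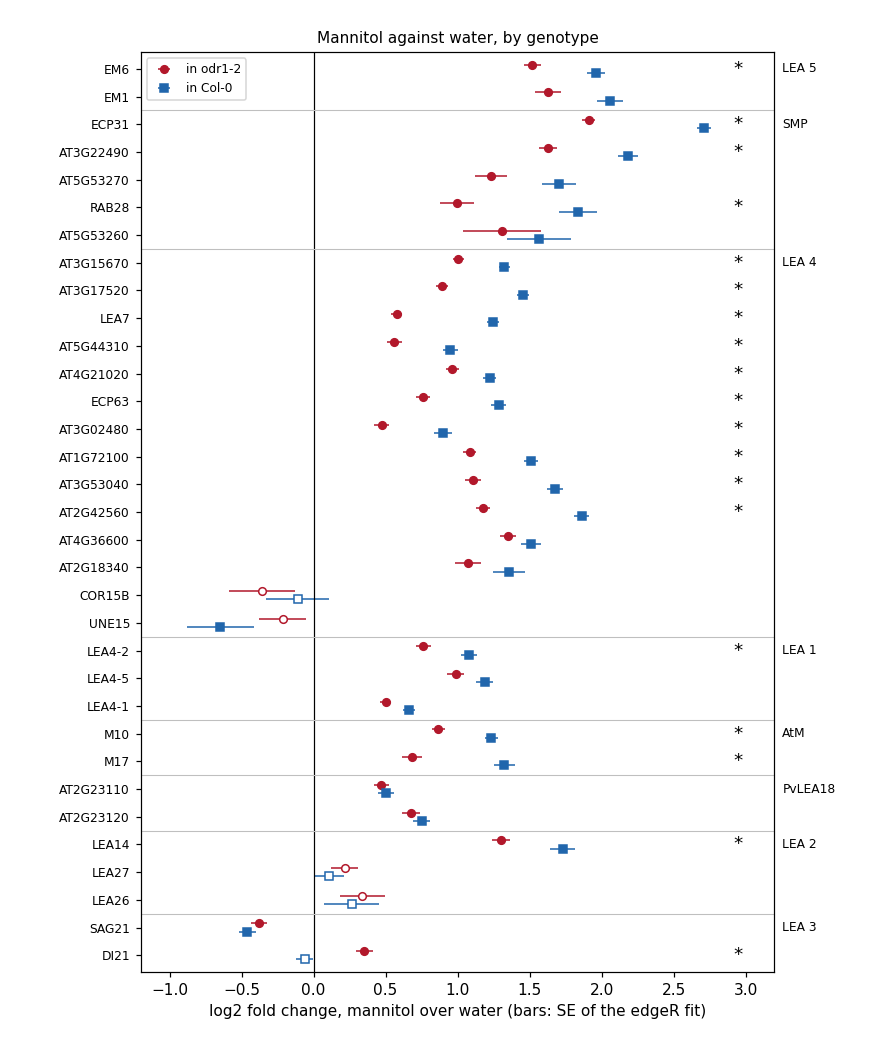
Log2 fold change of mannitol over water for the 33 tested LEA genes, in odr1-2 (red circles) and in Col-0 (blue squares), with standard errors of the edgeR fit. Filled symbols passed the test, open ones did not, and an asterisk marks a difference between the 2 genotypes that passed its own test. For most members the odr1-2 symbol lies left of the Col-0 symbol.

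Levels also differed between the genotypes in both media. In water, 29 of 33 tested LEA genes were higher in odr1-2 than in Col-0 and 2 were lower, with a median log2 fold change of 0.76 (-0.0018 over all genes), where 20.4% of all genes were higher and 18.6% lower. In mannitol, 23 were higher and 2 lower (24 and 2 without Col-0 mannitol replicate 2), with a median of 0.46 (-0.0012 over all genes), where 20.5% of all genes were higher and 19.6% lower. AT5G53260 and AT2G23120 were the lower ones in both media. Because the comparisons share groups of libraries, their values are set side by side for each gene and no agreement between them is counted.

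**Figure D4:**
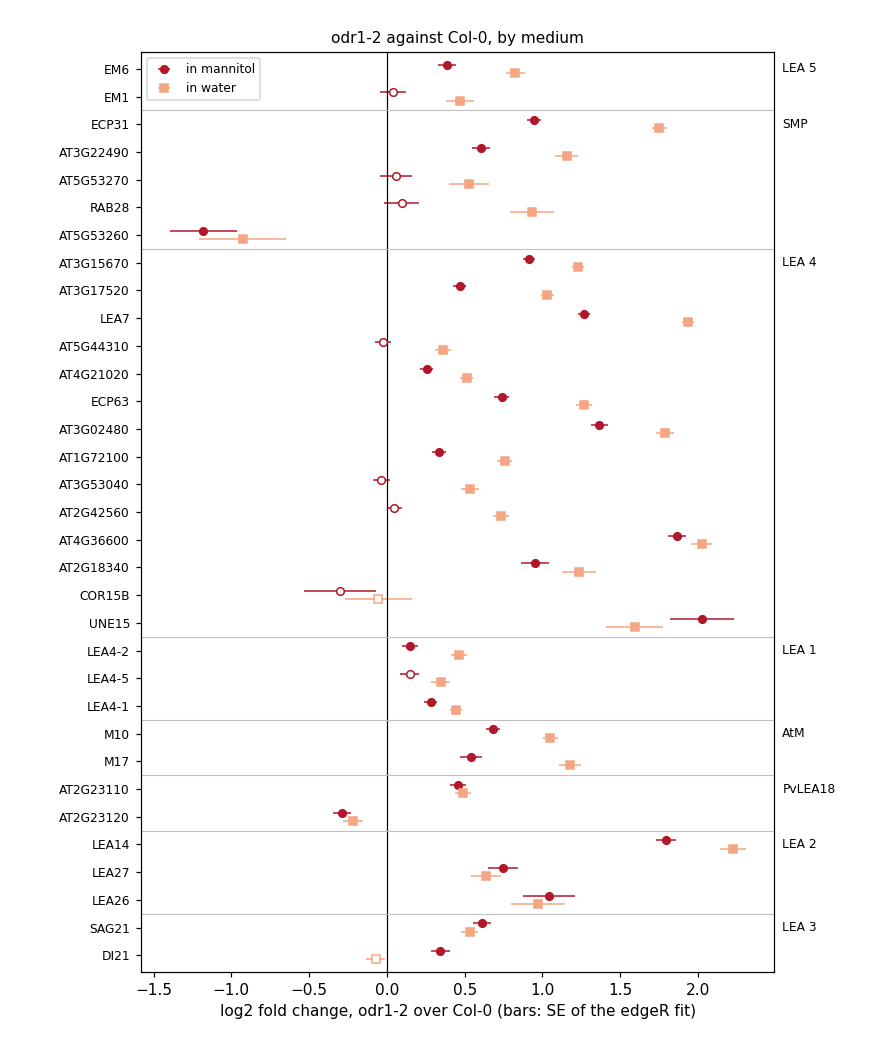
Log2 fold change of odr1-2 over Col-0 for the 33 tested LEA genes, in mannitol (dark red circles) and in water (light squares), with standard errors of the edgeR fit. Filled symbols passed the test. LEA14, AT4G36600 and LEA7 lie farthest right in water, and AT5G53260 farthest left in both media.

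Upstream sequence was read for the LEA genes. The windows printed here are the 250 bases before the annotated gene start in the RefSeq annotation of TAIR10.1, written along the gene's own strand. They are those of 3 genes that rose with mannitol in both genotypes (EM6, LEA7 and AT4G36600) and of a gene that fell (SAG21), and they do not stand for all members, since M17 and AT2G23120 rose in both genotypes with no ACGTG in the window. Capitals mark matches, on either strand, to ACGTG (the core of an ABRE), CACGTG (the G-box, which contains ACGTG on both strands), CATGCA (the RY motif bound by B3 factors) and CCGAC (the core of the CRT/DRE element bound by CBF and DREB factors). EM6 has chr2:16780369-16780618, minus strand, LEA7 has chr1:19619474-19619723, plus strand, AT4G36600 has chr4:17263314-17263563, plus strand, and SAG21 has chr4:1047106-1047355, minus strand.
EM6: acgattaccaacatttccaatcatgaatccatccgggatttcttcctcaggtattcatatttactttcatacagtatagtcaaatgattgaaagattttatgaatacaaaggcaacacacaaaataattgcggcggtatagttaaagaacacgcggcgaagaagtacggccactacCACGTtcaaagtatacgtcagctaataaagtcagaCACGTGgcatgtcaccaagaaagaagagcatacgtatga
LEA7: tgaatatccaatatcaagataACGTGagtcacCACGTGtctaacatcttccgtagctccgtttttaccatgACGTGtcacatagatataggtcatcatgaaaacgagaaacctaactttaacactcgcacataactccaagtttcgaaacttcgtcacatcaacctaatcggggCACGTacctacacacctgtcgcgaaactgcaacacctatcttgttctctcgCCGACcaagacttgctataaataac
AT4G36600: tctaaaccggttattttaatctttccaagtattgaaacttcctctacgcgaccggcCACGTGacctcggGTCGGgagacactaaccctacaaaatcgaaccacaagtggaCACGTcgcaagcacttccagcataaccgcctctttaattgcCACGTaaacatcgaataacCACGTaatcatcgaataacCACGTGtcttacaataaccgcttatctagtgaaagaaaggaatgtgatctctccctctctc
SAG21: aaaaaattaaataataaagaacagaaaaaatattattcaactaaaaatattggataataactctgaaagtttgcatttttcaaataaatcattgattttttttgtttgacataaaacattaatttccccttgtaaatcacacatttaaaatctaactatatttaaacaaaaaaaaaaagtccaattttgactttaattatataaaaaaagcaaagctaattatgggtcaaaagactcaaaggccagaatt
EM6 has ACGTG at 2 separate sites, LEA7 at 4 and AT4G36600 at 5, counting overlapping matches as 1 site. SAG21 has none of the 4 motifs in this window.

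ACGTG was common upstream of the LEA genes. Of the 33 tested members 26 (78.8%) had it in the window, against 23.3% of 16990 tested protein-coding genes, and 20 (60.6%) had it at 2 or more separate sites, against 5.73%. The G-box was present in 54.5% of tested members against 7.82%, CCGAC in 45.5% against 13.5%, and the RY motif in 15.2% against 7.25%. Of the 20 members with 2 or more ACGTG sites, 20 rose with mannitol in odr1-2 (median 1.04) and 20 rose in Col-0 (median 1.41). Among all genes tested, 21.2% rose and 21.3% fell in odr1-2, and 21% rose and 21.4% fell in Col-0. How many genes outside the family with 2 or more sites rose was not counted. Of the 7 tested members without ACGTG, 3 rose and 1 fell in odr1-2 (median 0.34) and 3 rose and 2 fell in Col-0 (median 0.26). These 7 include UNE15 and COR15B, which are among the least abundant tested members, so the number of sites is mixed with level and subfamily. The medians do not hold for each of the 7, since M17 rose by 0.69 in odr1-2 and 1.32 in Col-0. The 6 tested members with 1 site lay between, with 5 that rose in odr1-2 (median 0.67) and 4 in Col-0 (median 0.87). For the genotype difference the medians ran the other way: the 26 members with ACGTG had medians of 0.75 in water and 0.36 in mannitol, beside 0.97 and 0.61 for the 7 without it. A match is a description of these letters in this window and not evidence of binding.

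The LEA_5 subfamily has 2 members, EM6 and EM1, relatives of the wheat Early methionine-labelled protein, and EM6 (AT2G40170, chromosome 2, 16779552 to 16780368, minus strand) is needed for the normal timing of water loss in maturing Arabidopsis seeds. EM6 stood at 2744, 2644 and 2641 TPM in odr1-2 in mannitol and 926, 1028 and 1055 TPM in odr1-2 in water, against 1970.3, 2248 and 2205 TPM in Col-0 in mannitol and 546, 599.8 and 571 TPM in Col-0 in water. The 4 groups did not overlap. EM1 (AT3G51810) stood at 972, 1119 and 1106 TPM in odr1-2 in mannitol and 330.4, 398 and 381 TPM in odr1-2 in water, against 993, 1090.2 and 1167 TPM in Col-0 in mannitol and 268, 274 and 271 TPM in Col-0 in water, and the odr1-2 and Col-0 libraries in mannitol overlapped. Mannitol raised EM6 by 1.52 ± 0.06 in odr1-2 and 1.96 ± 0.06 in Col-0 on the log2 scale, and EM1 by 1.63 ± 0.09 and 2.06 ± 0.09 in the same order. Against Col-0, EM6 was higher in odr1-2 in water (0.83 ± 0.06) and in mannitol (0.38 ± 0.06), and EM1 was higher in water (0.47 ± 0.09) but was not called in mannitol (0.04 ± 0.08, adjusted p = 0.753). On the log2 scale the mannitol response of EM6 was smaller in odr1-2 than in Col-0, with a difference (odr1-2 minus Col-0) of -0.44 ± 0.08. The like difference of EM1, -0.43 ± 0.12, missed the threshold (adjusted p = 0.103) and passed it in 9 of 22 alternative fits, among them those without Col-0 mannitol replicate 1 (-0.51) and without odr1-2 water replicate 1 (-0.51), with adjusted p from 2.34e-08 to 0.249.

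**Figure D5:**
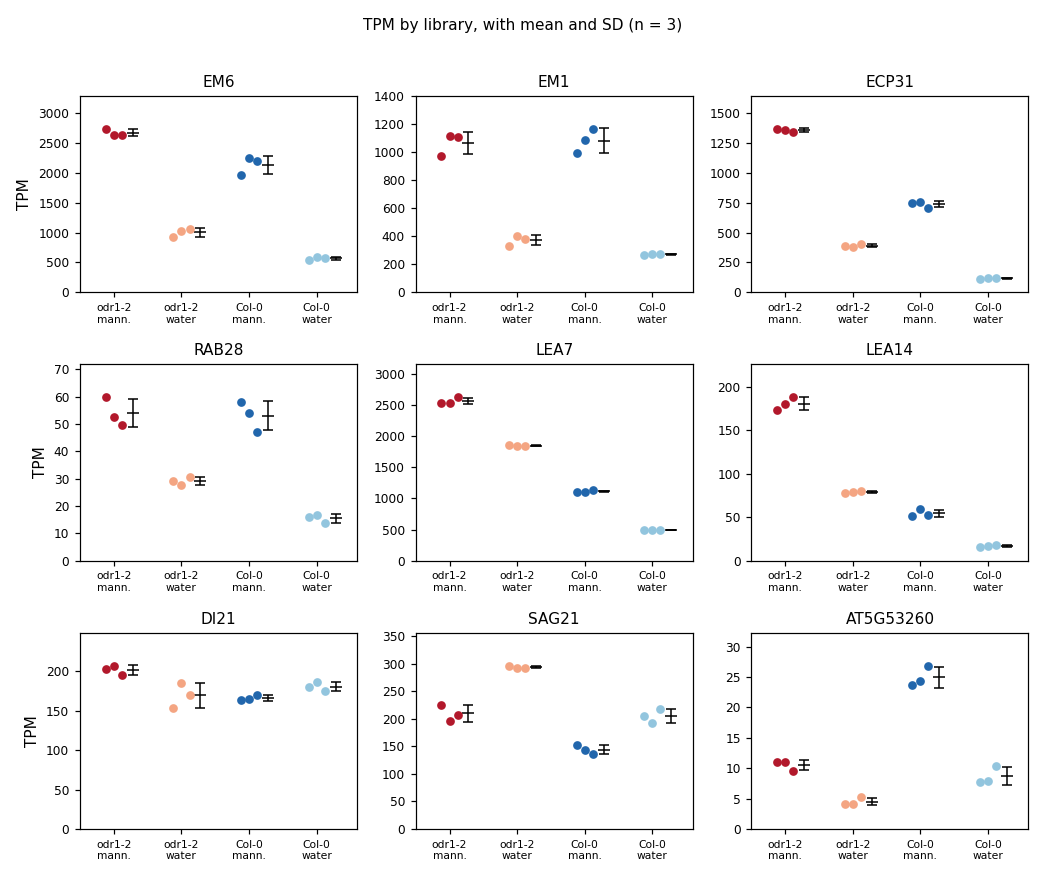
TPM of 9 LEA genes in each library, with the mean and SD of each group beside its 3 points. ECP31, LEA7 and LEA14 show 4 separate groups, EM1 and RAB28 overlap between genotypes in mannitol, SAG21 is highest in odr1-2 in water, and AT5G53260 is lower in odr1-2 than in Col-0 in the same medium.

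All 5 tested genes of the SMP (seed maturation protein) subfamily rose with mannitol in both genotypes, and ECP31 had the largest rise of the tested LEA genes in each. ECP31 (AT3G22500), named after a carrot embryogenic cell protein, stood at 1369, 1361 and 1340.2 TPM in odr1-2 in mannitol and 385, 377 and 403 TPM in odr1-2 in water, against 745, 755 and 708 TPM in Col-0 in mannitol and 111, 120.2 and 119 TPM in Col-0 in water. The 4 groups lay well apart. Its log2 fold change with mannitol was 1.91 ± 0.04 in odr1-2 and 2.71 ± 0.05 in Col-0, a difference of -0.80 ± 0.06 between the genotypes (adjusted p = 5.17e-16). It was higher in odr1-2 by 1.75 ± 0.05 in water and 0.95 ± 0.04 in mannitol. AT3G22490 stood at 239, 229.6 and 235 TPM in odr1-2 in mannitol and 87.4, 76.6 and 81.4 TPM in odr1-2 in water, against 159, 162 and 163 TPM in Col-0 in mannitol and 34.5, 38.3 and 38.0 TPM in Col-0 in water, again in 4 separate groups. Mannitol raised it by 1.63 ± 0.06 in odr1-2 and 2.18 ± 0.07 in Col-0, and odr1-2 exceeded Col-0 by 1.16 ± 0.07 in water and 0.60 ± 0.06 in mannitol.

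RAB28 (AT1G03120), a relative of the ABA-responsive maize gene of that name, stood at 59.8, 52.7 and 49.8 TPM in odr1-2 in mannitol and 29.3, 27.5 and 30.6 TPM in odr1-2 in water, against 57.9, 54.1 and 47.2 TPM in Col-0 in mannitol and 15.9, 16.8 and 13.6 TPM in Col-0 in water. In mannitol the genotypes overlapped, and in water odr1-2 was the higher. Its mannitol response was 1.0 ± 0.12 in odr1-2 and 1.83 ± 0.13 in Col-0, and the difference of -0.84 ± 0.18 (adjusted p = 0.00124) was the most negative among the LEA genes. Against Col-0 its log2 fold change was 0.93 ± 0.14 in water and 0.09 ± 0.11 in mannitol, the second not called (adjusted p = 0.544).

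AT5G53270 and AT5G53260 are neighbouring SMP genes on chromosome 5, on the same strand, 596 bases apart with no annotated gene between them. AT5G53270 stood at 52.8, 60.5 and 54.0 TPM in odr1-2 in mannitol and 23.1, 27.4 and 25.7 TPM in odr1-2 in water, against 54.9, 64.9 and 48.2 TPM in Col-0 in mannitol and 17.5, 16.8 and 19.3 TPM in Col-0 in water, and in mannitol the genotypes overlapped. AT5G53260 stood at 11.0, 11.0 and 9.52 TPM in odr1-2 in mannitol and 4.14, 4.15 and 5.20 TPM in odr1-2 in water, against 23.6, 24.3 and 26.9 TPM in Col-0 in mannitol and 7.78, 7.94 and 10.4 TPM in Col-0 in water, and was lower in odr1-2 than in Col-0 in either medium with no overlap. Mannitol raised both, AT5G53260 by 1.31 ± 0.27 in odr1-2 and 1.56 ± 0.22 in Col-0. The genotype difference of AT5G53260 was -0.93 ± 0.28 in water and -1.18 ± 0.22 in mannitol, whereas that of AT5G53270 was 0.53 ± 0.13 in water and 0.06 ± 0.10 in mannitol (adjusted p = 0.703). The call of AT5G53260 in water was lost without Col-0 water replicate 3 (-0.77, adjusted p = 0.0521). The ratio of AT5G53260 to AT5G53270 in TPM was 0.176 to 0.209 in odr1-2 in mannitol against 0.374 to 0.558 in Col-0 in mannitol, and 0.152 to 0.202 in odr1-2 in water against 0.444 to 0.539 in Col-0 in water. These ratios describe a pair chosen for its opposite genotype differences and were not tested. Of the 50-base stretches of AT5G53260, 12.9% are shared with AT5G53270, and how reads with several placements were counted is not stated.

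The LEA_4 subfamily, whose members carry a repeated short motif that forms helices on drying, is the largest, with 18 genes of which 14 were tested. In it 12 rose with mannitol in odr1-2, and 12 rose and 1 fell in Col-0. By genotype, 13 were higher in odr1-2 than in Col-0 in water and 10 in mannitol. Among all genes tested, 21.2% rose in odr1-2, and 21% rose and 21.4% fell in Col-0. The shares higher in odr1-2 were 20.4% in water and 20.5% in mannitol. AT3G15670, by mean the most abundant member in every group but Col-0 in water, where LEA4-1 led, stood at 5387, 5333 and 5207 TPM in odr1-2 in mannitol and 2709, 2895 and 2921 TPM in odr1-2 in water, against 2880.2, 2986 and 2979 TPM in Col-0 in mannitol and 1266, 1221 and 1192 TPM in Col-0 in water. It rose by 1.01 ± 0.04 in odr1-2 and 1.32 ± 0.04 in Col-0. The libraries of odr1-2 in water overlapped those of Col-0 in mannitol, and the other groups stood apart. AT3G17520 stood at 2365, 2357 and 2376 TPM in odr1-2 in mannitol and 1361, 1317 and 1441 TPM in odr1-2 in water, against 1696, 1866 and 1799 TPM in Col-0 in mannitol and 649, 671 and 716 TPM in Col-0 in water, in 4 separate groups. It rose by 0.89 ± 0.04 in odr1-2 and 1.45 ± 0.04 in Col-0.

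LEA7 (AT1G52690, chromosome 1, 19619724 to 19621534, plus strand), a cytosolic protein that interacts with membranes in the dry state in vitro, stood at 2524, 2537 and 2625 TPM in odr1-2 in mannitol and 1849, 1839.6 and 1848 TPM in odr1-2 in water, against 1108, 1101 and 1127 TPM in Col-0 in mannitol and 489, 485 and 489 TPM in Col-0 in water. In this gene odr1-2 in water exceeded Col-0 in mannitol, with no overlap between any groups. The genotype difference was 1.94 ± 0.04 in water and 1.27 ± 0.04 in mannitol, beside a mannitol response of 0.58 ± 0.04 in odr1-2 and 1.25 ± 0.04 in Col-0. AT3G02480 showed the same order of groups, at 834, 754 and 788 TPM in odr1-2 in mannitol and 599, 599 and 639.5 TPM in odr1-2 in water, against 313, 338 and 311 TPM in Col-0 in mannitol and 173, 173 and 191 TPM in Col-0 in water. It was higher in odr1-2 by 1.79 ± 0.06 in water and 1.37 ± 0.05 in mannitol, and its mannitol response was 0.47 ± 0.05 in odr1-2 and 0.90 ± 0.06 in Col-0. AT4G36600 stood at 252, 259 and 269 TPM in odr1-2 in mannitol and 108, 105 and 115 TPM in odr1-2 in water, against 77.2, 73.6 and 73.9 TPM in Col-0 in mannitol and 28.8, 26.6 and 26.6 TPM in Col-0 in water. Its genotype difference was 2.02 ± 0.07 in water and 1.86 ± 0.06 in mannitol, with a mannitol response of 1.35 ± 0.06 in odr1-2 and 1.51 ± 0.07 in Col-0 that did not differ between genotypes beyond the threshold (-0.16 ± 0.09, adjusted p = 0.448).

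ECP63 (AT2G36640), named after another carrot embryogenic cell protein, stood at 825, 883 and 872 TPM in odr1-2 in mannitol and 530.1, 565 and 547 TPM in odr1-2 in water, against 492, 565 and 559.5 TPM in Col-0 in mannitol and 225, 238 and 227 TPM in Col-0 in water. The libraries of odr1-2 in water overlapped those of Col-0 in mannitol. AT1G72100 stood at 668, 686 and 675 TPM in odr1-2 in mannitol and 330.4, 346 and 353 TPM in odr1-2 in water, against 532, 549 and 604 TPM in Col-0 in mannitol and 197, 202 and 217 TPM in Col-0 in water, and AT4G21020 at 1181, 1133 and 1189 TPM in odr1-2 in mannitol and 662, 637 and 634 TPM in odr1-2 in water, against 992, 1054 and 1022 TPM in Col-0 in mannitol and 468, 445 and 457 TPM in Col-0 in water. In both of these the 4 groups were separate, with odr1-2 in mannitol highest. The mannitol response of ECP63 was 0.76 ± 0.05 in odr1-2 and 1.28 ± 0.05 in Col-0, that of AT1G72100 1.08 ± 0.05 and 1.51 ± 0.05, and that of AT4G21020 0.96 ± 0.04 and 1.22 ± 0.04 in the same order.

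For 3 LEA_4 genes the genotypes overlapped in mannitol but not in water. AT2G42560 stood at 351, 377 and 373 TPM in odr1-2 in mannitol and 157, 180.2 and 186 TPM in odr1-2 in water, against 369.8, 363 and 381 TPM in Col-0 in mannitol and 109.8, 108 and 101 TPM in Col-0 in water. AT3G53040 stood at 459, 520.0 and 445 TPM in odr1-2 in mannitol and 229.8, 247 and 235 TPM in odr1-2 in water, against 470.3, 521 and 533 TPM in Col-0 in mannitol and 166, 161 and 170.5 TPM in Col-0 in water, and AT5G44310 at 945, 1025 and 1105 TPM in odr1-2 in mannitol and 715, 753 and 773 TPM in odr1-2 in water, against 1021, 1129 and 1119 TPM in Col-0 in mannitol and 599, 566 and 598 TPM in Col-0 in water. Their genotype differences in mannitol were not called: 0.05 ± 0.05 for AT2G42560, -0.04 ± 0.05 for AT3G53040 and -0.02 ± 0.05 for AT5G44310. In water odr1-2 was higher for each, by 0.74 ± 0.05, 0.54 ± 0.06 and 0.36 ± 0.05 in the same order, and mannitol raised them in odr1-2 by 1.18 ± 0.05, 1.10 ± 0.06 and 0.56 ± 0.05 and in Col-0 by 1.86 ± 0.05, 1.68 ± 0.06 and 0.95 ± 0.05.

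AT2G18340 was less abundant, at 47.7, 53.3 and 54.8 TPM in odr1-2 in mannitol and 25.1, 25.6 and 28.7 TPM in odr1-2 in water, against 29.3, 26.2 and 28.8 TPM in Col-0 in mannitol and 13.4, 10.4 and 10.6 TPM in Col-0 in water, and rose by 1.07 ± 0.09 in odr1-2 and 1.36 ± 0.11 in Col-0. UNE15 (AT4G13560), a gene named for an unfertilised embryo sac phenotype, stood at 3.68, 3.42 and 4.26 TPM in odr1-2 in mannitol and 3.97, 5.43 and 4.71 TPM in odr1-2 in water, against 1.16, 0.760 and 1.01 TPM in Col-0 in mannitol and 1.18, 1.78 and 1.75 TPM in Col-0 in water. Its odr1-2 libraries exceeded its Col-0 libraries in the same medium, by 1.59 ± 0.18 in water and 2.03 ± 0.20 in mannitol, the largest genotype difference of a LEA gene in mannitol. With mannitol it fell in Col-0 by 0.65 on the log2 scale (adjusted p = 0.0187), a call lost in 6 of 17 alternatives, among them leaving out, of the Col-0 libraries, replicate 2 (-0.56) or replicate 3 (-0.57) in water or replicate 2 in mannitol (-0.51), and it was not called in odr1-2 (-0.22 ± 0.16). COR15B (AT2G42530), which encodes a chloroplast protein of cold acclimation that stabilises membranes, stood at 3.36, 3.33 and 3.28 TPM in odr1-2 in mannitol and 5.06, 3.94 and 4.79 TPM in odr1-2 in water, against 4.01, 3.90 and 4.93 TPM in Col-0 in mannitol and 4.25, 4.82 and 5.31 TPM in Col-0 in water and was called in no comparison. Of its exon bases, 29.6% overlap AT2G42520 on the other strand, which averaged 53.1 CPM (counts scaled to the library's total) against 4.31 CPM for COR15B, and whether counting used strand is not stated. For AT2G18340, UNE15 and AT3G22490 such overlaps covered 6.27%, 5.32% and 2.50% of exon bases in that order. For AT2G23120, of the PvLEA18 subfamily, the overlap was 18.2%, with AT2G23118, which averaged 0.132 CPM against 86.3 CPM for AT2G23120.

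The LEA_1 subfamily, of which LEA4-5 has been shown to protect enzymes from drying in vitro, rose with mannitol in both genotypes for its 3 tested members. LEA4-2 (AT2G35300) stood at 2677, 2551 and 2422 TPM in odr1-2 in mannitol and 1537, 1703 and 1610.2 TPM in odr1-2 in water, against 2224, 2544 and 2448 TPM in Col-0 in mannitol and 1229, 1179 and 1153 TPM in Col-0 in water. LEA4-5 (AT5G06760) stood at 2473, 2564 and 2654 TPM in odr1-2 in mannitol and 1299, 1343 and 1526 TPM in odr1-2 in water, against 2309, 2552 and 2405 TPM in Col-0 in mannitol and 1127, 1055 and 1139.6 TPM in Col-0 in water, and LEA4-1 (AT1G32560) at 2205, 2163 and 2193 TPM in odr1-2 in mannitol and 1678, 1631 and 1680.2 TPM in odr1-2 in water, against 1819, 1927 and 1899.7 TPM in Col-0 in mannitol and 1226, 1258 and 1227 TPM in Col-0 in water. In mannitol the genotypes overlapped for LEA4-2 and LEA4-5 and were separate for LEA4-1. Mannitol raised LEA4-2 by 0.76 ± 0.05 in odr1-2 and 1.08 ± 0.05 in Col-0, LEA4-5 by 0.99 ± 0.06 and 1.19 ± 0.06, and LEA4-1 by 0.50 ± 0.04 and 0.66 ± 0.04. In water the 3 genes were higher in odr1-2 by 0.46 ± 0.05, 0.34 ± 0.06 and 0.44 ± 0.04 in that order. In mannitol LEA4-1 was higher by 0.28 ± 0.04 and LEA4-2 by 0.15 ± 0.05 (adjusted p = 0.0266), and LEA4-5 was not called (0.15 ± 0.06, adjusted p = 0.0574). The LEA4-2 call in mannitol was lost in 7 of 17 alternatives, including those without Col-0 mannitol replicate 1 (0.07), odr1-2 mannitol replicate 1 (0.12) or odr1-2 mannitol replicate 2 (0.15). LEA4-5 passed in 9 of 17 alternatives, including those without odr1-2 mannitol replicate 1 (0.18) or Col-0 mannitol replicate 2 (0.21).

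The AtM pair, M17 and M10, are maturation genes known from Arabidopsis embryos that lie near each other on chromosome 2. M10 (AT2G41280) stood at 1808, 1796 and 1878 TPM in odr1-2 in mannitol and 1117, 1075 and 1046 TPM in odr1-2 in water, against 1132, 1254 and 1185 TPM in Col-0 in mannitol and 536, 524 and 521 TPM in Col-0 in water. M17 (AT2G41260) stood at 896, 868 and 788 TPM in odr1-2 in mannitol and 563, 555 and 588 TPM in odr1-2 in water, against 550.0, 646 and 638 TPM in Col-0 in mannitol and 245, 274 and 243 TPM in Col-0 in water, and odr1-2 in water overlapped Col-0 in mannitol. Mannitol raised M10 by 0.87 ± 0.04 in odr1-2 and 1.24 ± 0.05 in Col-0, and M17 by 0.69 ± 0.07 and 1.32 ± 0.07. The level in odr1-2 exceeded that in Col-0 by 1.05 ± 0.05 for M10 and 1.18 ± 0.07 for M17 in water, and by 0.68 ± 0.04 and 0.54 ± 0.07 in mannitol.

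The PvLEA18 subfamily, named after a bean protein, has 1 gene that was higher and 1 that was lower in odr1-2 than in Col-0. AT2G23110 stood at 388, 382 and 374 TPM in odr1-2 in mannitol and 296, 307 and 286 TPM in odr1-2 in water, against 277, 287 and 307 TPM in Col-0 in mannitol and 218, 217 and 206 TPM in Col-0 in water, and odr1-2 in water overlapped Col-0 in mannitol. AT2G23120, 475 bases away on the same strand, stood at 179.6, 184 and 180.1 TPM in odr1-2 in mannitol and 115, 122 and 127 TPM in odr1-2 in water, against 222, 235 and 237 TPM in Col-0 in mannitol and 148, 141 and 141 TPM in Col-0 in water, with lower values in odr1-2 than in Col-0 in either medium and no overlap. The genotype differences were 0.49 ± 0.05 in water and 0.46 ± 0.05 in mannitol for AT2G23110, and -0.22 ± 0.06 and -0.29 ± 0.06 for AT2G23120. The water call of AT2G23120 was lost without odr1-2 water replicate 1 (-0.17, adjusted p = 0.0509). The ratio of AT2G23120 to AT2G23110 in TPM was 0.463 to 0.482 in odr1-2 in mannitol against 0.771 to 0.817 in Col-0 in mannitol, and 0.388 to 0.446 in odr1-2 in water against 0.650 to 0.684 in Col-0 in water, again with no test. Mannitol raised AT2G23110 by 0.47 ± 0.05 in odr1-2 and 0.50 ± 0.05 in Col-0, and AT2G23120 by 0.68 ± 0.06 and 0.75 ± 0.06.

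The LEA_2 proteins are atypical members that fold into a compact structure. LEA14 (AT1G01470, chromosome 1, 171525 to 172948, minus strand) stood at 173, 179.7 and 188 TPM in odr1-2 in mannitol and 77.6, 78.6 and 79.7 TPM in odr1-2 in water, against 50.8, 59.1 and 52.7 TPM in Col-0 in mannitol and 16.1, 16.9 and 18.0 TPM in Col-0 in water, in 4 separate groups. It had the largest genotype difference in water, 2.22 ± 0.08, and was higher in odr1-2 by 1.79 ± 0.07 in mannitol. Mannitol raised it by 1.30 ± 0.06 in odr1-2 and 1.73 ± 0.09 in Col-0. LEA26 (AT2G44060) stood at 13.6, 12.8 and 15.6 TPM in odr1-2 in mannitol and 9.75, 14.3 and 11.4 TPM in odr1-2 in water, against 5.86, 8.44 and 6.84 TPM in Col-0 in mannitol and 5.50, 5.76 and 7.08 TPM in Col-0 in water, and LEA27 (AT2G46140) at 64.7, 63.2 and 62.3 TPM in odr1-2 in mannitol and 59.3, 57.8 and 59.2 TPM in odr1-2 in water, against 35.7, 42.9 and 39.6 TPM in Col-0 in mannitol and 32.9, 35.6 and 45.5 TPM in Col-0 in water. Both were higher in odr1-2, LEA26 by 0.97 ± 0.17 in water and 1.04 ± 0.17 in mannitol and LEA27 by 0.64 ± 0.10 and 0.75 ± 0.10, with no overlap between genotypes. Neither was called with mannitol: the log2 fold changes were 0.34 ± 0.16 in odr1-2 and 0.26 ± 0.19 in Col-0 for LEA26, and 0.21 ± 0.09 and 0.11 ± 0.10 for LEA27. Without odr1-2 water replicate 2, LEA26 was called in odr1-2 (0.50).

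Of the 2 tested genes of the LEA_3 subfamily, 1 rose and 1 fell with mannitol in odr1-2, and 0 rose and 1 fell in Col-0. SAG21 (AT4G02380, chromosome 4, 1046042 to 1047105, minus strand), a mitochondrial protein of senescence and oxidative stress also called LEA5, stood at 226, 196 and 208 TPM in odr1-2 in mannitol and 297, 292 and 293 TPM in odr1-2 in water, against 152, 144 and 136 TPM in Col-0 in mannitol and 205, 193 and 219 TPM in Col-0 in water. Its level was lower in mannitol than in water in both genotypes without overlap, and highest in odr1-2 in water. Its log2 fold change with mannitol was -0.38 ± 0.06 in odr1-2 and -0.46 ± 0.06 in Col-0, and it was higher in odr1-2 by 0.53 ± 0.06 in water and 0.61 ± 0.06 in mannitol. DI21 (AT4G15910), first found as a drought-induced gene, stood at 203, 207 and 195 TPM in odr1-2 in mannitol and 153, 185 and 169 TPM in odr1-2 in water, against 163, 165 and 170.1 TPM in Col-0 in mannitol and 179, 187 and 175 TPM in Col-0 in water. Its mannitol response was 0.35 ± 0.06 in odr1-2 and -0.06 ± 0.06 in Col-0, the second not called (adjusted p = 0.433). The genotype difference was 0.34 ± 0.06 in mannitol and -0.07 ± 0.06 in water, where the genotypes overlapped (adjusted p = 0.364).

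Whether the mannitol response itself differed between genotypes was tested as an interaction. For 18 of 33 tested LEA genes the response was smaller in odr1-2 than in Col-0, and for 1, DI21, it was larger, with a median difference of -0.37 on the log2 scale (-0.0179 over all genes). A smaller response here is a smaller ratio of mannitol to water, and need not be a smaller gain in TPM. The summed level of the LEA genes averaged 32583 TPM in mannitol and 18761 TPM in water in odr1-2, against 24069 and 10526 TPM in Col-0. Among all genes tested 2.67% had a lower and 1.08% a higher response in odr1-2. After RAB28 and ECP31, the most negative differences were those of AT2G42560 (-0.69 ± 0.07), LEA7 (-0.67 ± 0.06) and M17 (-0.64 ± 0.10). The others called were AT3G53040 (-0.57 ± 0.08), AT3G17520 (-0.56 ± 0.06), AT3G22490 (-0.55 ± 0.10), ECP63 (-0.53 ± 0.07), EM6, LEA14 (-0.43 ± 0.11), AT3G02480 (-0.42 ± 0.08), AT1G72100 (-0.42 ± 0.07), AT5G44310 (-0.39 ± 0.07), M10 (-0.37 ± 0.06), AT3G15670 (-0.32 ± 0.05), LEA4-2 (-0.32 ± 0.08) and AT4G21020 (-0.26 ± 0.06). The call of AT5G44310 was lost without Col-0 mannitol replicate 2 (-0.34, adjusted p = 0.0705). For DI21 the difference was 0.42 ± 0.09 (adjusted p = 0.000561). Of the members not called, LEA4-1 passed in 5 of 22 alternatives, including total count scaling (-0.20) and leaving out Col-0 mannitol replicate 1 (-0.21). LEA4-5 passed in 2 of 22, with no low-count filter (-0.20) and without odr1-2 water replicate 1 (-0.26), and AT5G53270 in 1 of 22, without Col-0 mannitol replicate 3 (-0.57). The interaction is, by its construction, the genotype difference in mannitol minus that in water.

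The order of the 4 group means was shared by many members. For 14 of 33 tested LEA genes it ran Col-0 in water, odr1-2 in water, Col-0 in mannitol and odr1-2 in mannitol from low to high, and for 8 the 2 middle groups were exchanged. Among all genes tested, 9.48% had the first order and 9.6% the second. In all, 23 members had their highest mean in odr1-2 in mannitol, where 24.5% of all genes had theirs. The lowest mean was in Col-0 in water for 27 members, against 28.4% of all genes. For 7 the highest mean was in Col-0 in mannitol, and for 5 of these the order was otherwise that of the first pattern with the 2 highest groups exchanged. The shares of all genes for these last counts were not taken, so nothing is read from them.

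Other gene groups of the same programme were counted for comparison. Of 9 tested dehydrins, the other large LEA subfamily, 5 rose and 1 fell with mannitol in odr1-2 and 5 rose and 1 fell in Col-0, and 7 were higher and 1 lower in odr1-2 than in Col-0 in each medium. Among 15 tested transcription factors of maturation and ABA response, 9 rose and 2 fell with mannitol in odr1-2, and 8 rose and 1 fell in Col-0. In odr1-2 against Col-0, 9 were higher and 0 lower in each medium. Beside these counts, 21.2% of all genes tested rose and 21.3% fell with mannitol in odr1-2, and 21% rose and 21.4% fell in Col-0. By genotype, 20.4% of all genes were higher and 18.6% lower in odr1-2 in water, and 20.5% and 19.6% in mannitol. FUS3, a B3 factor of the embryo programme, stood at 22.4, 23.6 and 23.7 TPM in odr1-2 in mannitol and 23.3, 23.1 and 21.7 TPM in odr1-2 in water, against 2.36, 1.56 and 1.34 TPM in Col-0 in mannitol and 1.34, 1.64 and 1.17 TPM in Col-0 in water. It was higher in odr1-2 by 4.04 ± 0.18 in water and 3.81 ± 0.18 in mannitol and did not overlap between genotypes. These were the largest genotype differences among the 15 factors. ABI3 averaged 308 TPM in mannitol and 290 TPM in water in odr1-2, against 337 and 292 TPM in Col-0. ABI5 averaged 115 TPM in mannitol and 94.8 TPM in water in odr1-2, against 107 and 83.2 TPM in Col-0. Of these 15 factors ABI4 had a called interaction (0.75 ± 0.09): it fell with mannitol by 0.51 in odr1-2 and by 1.26 in Col-0 on the log2 scale, so the positive value is a smaller fall in odr1-2. Of 5 CBF and DREB factors 2 were tested, and DREB2A was higher in odr1-2 by 0.90 ± 0.06 in water and 0.94 ± 0.06 in mannitol, while CBF1 had 0 counts in all 12 libraries.

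Markers of other seed tissues moved with some of the groups. The summed level of 6 endosperm markers averaged 9755 TPM in odr1-2 in mannitol and 9277 TPM in odr1-2 in water, against 4454 TPM in Col-0 in mannitol and 3797 TPM in Col-0 in water, with Col-0 mannitol replicate 2 lowest at 3196 TPM. EPR1 carried most of this sum, with means of 7967 TPM in odr1-2 in mannitol and 6899 TPM in odr1-2 in water, against 3279 TPM in Col-0 in mannitol (2055 TPM in replicate 2) and 2575 TPM in Col-0 in water. Of these markers EXPA2, MAN7 and EPR1 were higher in odr1-2 than in Col-0 in each medium, MAN2 was lower in water and ICE1 in mannitol, and MAN6 was called in neither. The 5 embryo reserve genes averaged 32209 TPM in odr1-2 in mannitol and 20062 TPM in odr1-2 in water, against 17661 TPM in Col-0 in mannitol and 7692 TPM in Col-0 in water, and CRA1 and OLEO1 held most of the sum. Of the 5, 4 were higher in odr1-2 in each medium and CRU2 was lower (-0.29 ± 0.04 in mannitol and -0.27 ± 0.04 in water). Seed coat markers summed to 8.56 to 11.4 TPM on average in every group, with BAN and TT10 at 0 to 1 count. The part of tissue makeup in the LEA differences was not tested.

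The 8 members with too few counts to test were nearly silent in these seeds. AT3G53770, AT2G03740, AT4G13230 and AT2G33690 had 0 counts in all 12 libraries, below a floor of 3 counts of 139026844, which is 0.0216 CPM. COR15A (AT2G42540), the cold-acclimation partner of COR15B, had 3 counts in all, 1 in odr1-2 water replicate 2 and 2 in Col-0 water replicate 3. In all libraries AT2G03850 had 9 counts, AT5G27980 had 28 and LEA3 (AT1G02820) had 49. LEA3 counts were 5 in odr1-2 in mannitol and 7 in odr1-2 in water, against 16 in Col-0 in mannitol and 21 in Col-0 in water, summed over 3 libraries each. Floors cover counting error only.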

How the data were processed

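Per the labels, messenger RNA from 12 seed samples was selected by its poly-A tail and made into cDNA libraries from fragments by random priming. The deposited count table holds the authors' whole-number read counts per gene, and the deposited TPM table holds the authors' TPM values; the submitters' processing notes name HISAT2 2.2.1, fastp 0.23.1, the build TAIR10 and HTSeq 2.0.5, without settings for strand or for reads with several placements. TPM gave levels, and counts gave all tests.

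Counts of 36795 loci entered a quasi-likelihood test in edgeR 4.0.16 (R 4.3.3, robust spread, TMM, filterByExpr with a minimum count of 10 and a minimum total of 15), which left 18413 genes holding at least 99.9% of each library. TMM factors ran from 0.960 to 1.03, and the common biological coefficient of variation was 5.80%. All 12 libraries entered 1 fit with 4 group means, and 5 contrasts were tested two-sided, with Benjamini-Hochberg adjustment over all genes tested and a threshold of 0.05. The standard error was taken from the log2 fold change and the F statistic of its test. No 2 replicates agreed within counting noise, so 3 were counted in each group. The pipeline was tested on simulated data.

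The alternatives were DESeq2 1.42.0 size factors and its Wald test, total count or upper-quartile scaling, no low-count filter, a stricter one (at least 1 CPM in 3 libraries and 5 CPM on average), limma 3.58.1 (voom, and trend on log2 of TPM plus 1 or plus 0.1), the 2 groups compared alone, the replicate number as a block, and leaving out each library.

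Gene starts, exons, overlaps and upstream windows came from RefSeq TAIR10.1, where the 41 genes were found by locus. The ratio of counts to TPM followed its exon lengths to within 1% for 99.86% of the 16827 genes that had 200 counts or more. All 41 genes are accounted for by subfamily. Per-library values are given for EM1, EM6, ECP31, ECP63, LEA7, LEA14, SAG21, COR15A, COR15B, M10, M17, RAB28, the 5 most abundant members, the 3 largest and smallest changes of each comparison and each called interaction, and here for the other tested members too. The members, the gene lists and this rule were chosen with earlier results of these data known.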

Additional observations from a re-analysis of the deposited data

Results flagged for a closer look

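For 19 LEA genes the mannitol response differed between the genotypes by the interaction test of the edgeR fit (adjusted p under 0.05). Values are the mannitol log2 fold change in odr1-2 minus that in Col-0. The difference was -0.84 for RAB28, -0.80 for ECP31, -0.69 for AT2G42560, -0.67 for LEA7 and -0.64 for M17. It was -0.57 for AT3G53040, -0.56 for AT3G17520, -0.55 for AT3G22490, -0.53 for ECP63 and -0.44 for EM6. It was -0.43 for LEA14, -0.42 for AT3G02480, -0.42 for AT1G72100, -0.39 for AT5G44310 and -0.37 for M10. It was -0.32 for AT3G15670, -0.32 for LEA4-2, -0.26 for AT4G21020 and 0.42 for DI21.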

How the results depend on the processing

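Of 2960 values recomputed for single LEA genes under the alternatives, 2912 kept their side of the threshold. Another 16 kept the direction but lost the call, and 32 kept the direction and gained one. Where the main or the alternative fit made a call, 0 values changed sign. Changes of sign between values called in neither fit were not counted. The lost calls were those of UNE15 (mannitol in Col-0), AT5G53260 and AT2G23120 (genotype in water), LEA4-2 (genotype in mannitol) and AT5G44310 (interaction), and the gained ones were those of LEA26, LEA27 and COR15B (mannitol), LEA4-5 (genotype in mannitol and interaction), and LEA4-1, EM1 and AT5G53270 (interaction). Leaving out each library in turn, the number of LEA genes that rose with mannitol stayed at 27 in Col-0 and ran from 28 to 29 in odr1-2, and the number that fell ran from 1 to 2 in Col-0 and stayed at 1 in odr1-2. Those higher in odr1-2 stayed at 29 in water and ran from 22 to 24 in mannitol, and those lower ran from 1 to 2 in water and stayed at 2 in mannitol. Smaller responses in odr1-2 were called for 17 to 20 genes and larger ones for 1. The number that fell in Col-0 was 1 in limma-voom and in both limma-trend fits, where UNE15 was not called, and the number that fell in odr1-2 was 2 in both limma-trend fits, which also called COR15B. With the stricter filter AT5G53260 was not tested, and 1 gene was lower in odr1-2 in water and 1 in mannitol. Replicate numbers do not pair the samples (correlations of deviations between same-numbered libraries of -0.0264 to 0.0298), and the fit with a replicate block gave 27 higher and 2 lower in Col-0, 29 and 1 in odr1-2, 29 and 2 by genotype in water, 24 and 2 by genotype in mannitol, and 1 and 19 for the interaction. For all genes, limma-trend on log2 of TPM plus 0.1 moved the median of the mannitol contrast in odr1-2 to -0.109 against -0.0035 in edgeR, and it called 2446 higher and 5108 lower there against 3907 and 3919. Total count scaling gave 3068 and 4957. The causes were not tested. Of the 48 changed calls, 11 were for LEA4-5, 9 for EM1, 7 for LEA4-2 and 5 for LEA4-1, which are abundant, and depth limits AT5G53260 most, with 14 to 24 counts a library in odr1-2 in water.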
